A study of Homo sapiens with 4 samples.

Results

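The 3 genes of the MYC family, MYC, MYCN and MYCL, and the long non-coding RNA (lncRNA) genes PVT1 and CCAT1, which lie in the 8q24 band that also holds MYC, were examined in peak lists of the histone mark H3K27ac. These 5 genes were taken from the 64449 genes of the GENCODE annotation on hg19, of which 20163 are protein-coding and 18702 are lncRNA genes. A record was found for 4 of the 5 members, and CCAT1 had none. For each gene, the peaks overlapping 1 kb either side of any annotated transcript start were called promoter peaks. Distal peaks, which lie away from the starts of every protein-coding gene and of the members, were collected within 1 Mb of MYC and within 50 kb of MYCN and MYCL. The members held 25 of 85576 peaks in COLO-205, 96 of 75468 in DU-145, 85 of 76093 in OVCAR-3 and 15 of 14001 in SKOV-3.

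MYC, MYCN and MYCL encode related transcription factors that pair with MAX on E-box DNA and drive growth and biosynthesis genes. They are known in cancer for being switched on by amplification, rearrangement or distant enhancers, and many of the enhancers that act on MYC lie far from the gene, some of them within PVT1. H3K27ac marks active promoters and enhancers. The study used the mark to ask whether predicted regulatory mutations sit in active DNA of the same cell line. The lines are COLO-205 (colon cancer), DU-145 (prostate cancer) and OVCAR-3 and SKOV-3 (ovarian cancer), all established human lines with no treatment named in the labels. They were grown in RPMI media (COLO-205 and OVCAR-3), Eagle minimal essential medium (DU-145) or McCoy medium (SKOV-3), each with serum. Each line gave 1 library, made with the Abcam antibody ab4729, so the spread between replicates is unknown and no p-value is stated. Every interval below covers counting error only.

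The sequences just before the MYCN and MYCL starts and of MYCN distal elements are shown first, to show which bases there lie under a peak. All were read from the GRCh37 assembly, the build of the peak lists, and run 5′ to 3′ on the strand stated. The promoter sequences are the 250 bases before the gene start, and their capitals mark bases under a peak, which is that of OVCAR-3 at MYCN (76 bases) and that of DU-145 at MYCL (150 bases). The promoter peaks of COLO-205 at both genes and of OVCAR-3 at MYCL lie past the gene start, outside these bases. The distal sequences are the peaks of highest −log10 q near MYCN in each line that had any. In the MYCN distal peak of COLO-205 the 197 capitals mark bases that also lie under a peak of OVCAR-3, and in that of OVCAR-3 the 21 capitals are centred on the summit.
MYCN promoter, chr2:16080422-16080671, plus strand: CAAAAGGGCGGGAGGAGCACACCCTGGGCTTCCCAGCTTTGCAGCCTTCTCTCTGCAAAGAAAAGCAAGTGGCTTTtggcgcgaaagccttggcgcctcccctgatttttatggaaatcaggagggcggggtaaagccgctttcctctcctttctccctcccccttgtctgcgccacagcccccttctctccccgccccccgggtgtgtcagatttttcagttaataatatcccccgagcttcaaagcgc
MYCL promoter, chr1:40367929-40368178, minus strand: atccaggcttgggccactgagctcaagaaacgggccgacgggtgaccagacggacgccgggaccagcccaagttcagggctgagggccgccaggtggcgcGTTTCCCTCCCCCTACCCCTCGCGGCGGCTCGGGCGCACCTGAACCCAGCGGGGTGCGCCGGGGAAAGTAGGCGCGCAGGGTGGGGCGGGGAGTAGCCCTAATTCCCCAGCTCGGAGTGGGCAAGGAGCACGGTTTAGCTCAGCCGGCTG
MYCN distal peak of COLO-205, chr2:16031594-16031836, plus strand: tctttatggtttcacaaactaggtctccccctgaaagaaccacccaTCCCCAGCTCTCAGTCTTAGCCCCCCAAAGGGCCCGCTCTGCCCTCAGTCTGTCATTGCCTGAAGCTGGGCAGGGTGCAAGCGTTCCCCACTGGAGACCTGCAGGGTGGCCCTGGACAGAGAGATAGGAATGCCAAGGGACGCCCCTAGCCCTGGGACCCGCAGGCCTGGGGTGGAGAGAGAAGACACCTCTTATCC
MYCN distal peak of OVCAR-3, chr2:16108871-16109158, plus strand: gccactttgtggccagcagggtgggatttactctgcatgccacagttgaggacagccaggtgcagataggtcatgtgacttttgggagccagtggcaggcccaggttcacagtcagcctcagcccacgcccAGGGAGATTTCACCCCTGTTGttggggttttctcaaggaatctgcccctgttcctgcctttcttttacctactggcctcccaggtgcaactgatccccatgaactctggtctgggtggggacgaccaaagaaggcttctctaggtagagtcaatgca
None of the 4 sequences held the E-box CACGTG, the AP-1 motif TGANTCA, the TCF/LEF motif CTTTGAT or the forkhead motif TGTTTAC on either strand. Of all 20163 protein-coding promoters of the same length, 7.17% held the E-box, 5.44% the AP-1, 2.45% the forkhead and 2.07% the TCF/LEF motif. Over all distal peaks of COLO-205 and OVCAR-3, each motif was in at most 7.25% of the 300 bp windows on the summits. A sequence without a match is therefore the usual case. Every 24-base word of these sequences occurred at a single place in the assembly, counting both strands.

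Facts of the whole libraries bear on every value that follows. The ChIP tag number, recovered from the lowest background of each list, was between 22400000 in SKOV-3 and 36050000 in DU-145, and the median pileup at a summit was between 24 and 30 tags. SKOV-3 had both the fewest tags and the shortest list, and the labels used here name no batch. The defining markers of colon epithelium had a promoter peak at 3 of 5 genes in COLO-205, 1 in each of DU-145 and OVCAR-3 and 0 in SKOV-3. Those of the ovary and Müllerian tract had one at 5 of 5 in OVCAR-3 but also at 4 in COLO-205 and 3 in DU-145, and in SKOV-3 at PAX8 alone. The prostate list had a peak at 2 of 5 genes in DU-145, but also at 2 in COLO-205 and OVCAR-3 and at 1 in SKOV-3. FOXA1 had one in all 4 lines, while KLK3 had one in COLO-205 alone and HOXB13 in OVCAR-3 alone. Of 3 epithelial markers, KRT8 and KRT18 had a peak in all 4 lines, and EPCAM in every line but SKOV-3.

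In COLO-205 and OVCAR-3, promoter peaks were found at all 4 members with a record, in DU-145 at 3 and in SKOV-3 at 1. CCAT1, which has no record, could not be counted. COLO-205 had a promoter peak at 51.1% of all protein-coding genes and 22.8% of all lncRNA genes. The shares were 59.8% and 24.4% for DU-145, 60.5% and 24.6% for OVCAR-3, and 31.6% and 10.7% for SKOV-3. PVT1 was the gene with a promoter peak in all 4 lines, MYC and MYCL had one in 3 lines, and MYCN in 2. Among the protein-coding members SKOV-3 had no promoter peak. At its depth and a q-value below 0.001 no peak was detectable there, which does not show that the mark was absent. When the start of the gene record alone was used, the count was 2 in COLO-205 and 0 in SKOV-3, since the peaks of MYC and PVT1 in COLO-205 and of PVT1 in SKOV-3 lie at internal starts. With every list held to its 14001 peaks of highest −log10 q, the count was 2 in DU-145 and OVCAR-3 and 1 in COLO-205 and SKOV-3, and at a −log10 q of at least 10 it was 1 in COLO-205.

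Strength is given by the fold enrichment, which is the tag pileup at the summit over the local background with 1 added to each. Since these values are not scaled between libraries, each was also ranked among all peaks of its own line. At MYC (chr8:128747680-128755197, plus strand, 14 annotated starts), which encodes the best known member of the family, the peak of highest −log10 q had a fold enrichment of 5.12 in DU-145 and 4.74 in OVCAR-3, and of 2.91 in COLO-205. These values ranked at the 70.4, 33.7 and 2.53 percentile of all peaks of the line. SKOV-3 had no peak at any MYC start. The median promoter peak of all protein-coding genes ranked at the 41.0 percentile in COLO-205, 56.4 in DU-145 and 77.6 in OVCAR-3, so MYC was above the median promoter in DU-145 and below it in the other 2 lines with a peak.

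The position of the MYC peaks also differed. In DU-145, 2 of 5 promoter peaks lay at the start of the gene, and the strongest had its summit 356 bp upstream of it, with −log10 q of 32.4. In OVCAR-3, 3 of 5 lay at the start, but the strongest had its summit 2944 bp downstream, within the gene, with −log10 q of 26.2. The single peak of COLO-205 had its summit 1953 bp downstream, at an internal start, with −log10 q of 7.17. DU-145 and OVCAR-3 therefore carried the mark at the start and within the gene, with 3469 and 3407 bp covered, against 397 bp in COLO-205.

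By its pileup, MYC ranked higher within each line than by its fold enrichment. At the MYC summits it was 42 tags in COLO-205 (95% Poisson interval 30.3 to 56.8), 90 in DU-145 (72.4 to 110.6) and 77 in OVCAR-3 (60.8 to 96.2). The pileups ranked at the 88.6, 96.8 and 88.7 percentile of their lines. The local background at the same summits was 5.82, 5.06 and 6.13 times the lowest background of the line, against 3.76, 4.08 and 4.17 times at the median protein-coding promoter peak. All 3 MYC summits thus held many tags on a high local background, which lowers the fold enrichment by its definition. Relative to the lowest background, the MYC pileup was 17.8 times in COLO-205, 27.2 in DU-145 and 30.5 in OVCAR-3, and the median protein-coding promoter peak had 17.8, 20.2 and 33.3 times. Copy number was not analysed here, and its part in the background was not tested.

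MYCN (chr2:16080672-16087129, plus strand, 3 annotated starts), the member best known from neuroblastoma, had its strongest peak in COLO-205. This peak, at chr2:16080752-16081526, had a fold enrichment of 9.07, the 97.1 percentile of the line, with a −log10 q of 26.2. Its summit lay 653 bp downstream of the gene start and held 42 tags (30.3 to 56.8). The same pileup as at MYC in this line stood on a local background of 1.58 times the lowest, against 5.82 times at MYC. A further 2 promoter peaks of COLO-205 had fold enrichments of 3.86 and 4.55. The peak of OVCAR-3, at chr2:16080298-16080497, had a fold enrichment of 3.74, the 10.4 percentile, and its summit was 284 bp upstream of the start. The COLO-205 and OVCAR-3 peaks did not overlap, and neither DU-145 nor SKOV-3 had a peak within 50 kb of the gene.

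MYCL (chr1:40361100-40367928, minus strand, 3 annotated starts), first described in lung cancer, had promoter peaks in the same 3 lines as MYC. OVCAR-3 had the highest fold enrichment, 8.15, followed by DU-145 with 4.27 and COLO-205 with 3.81, and these ranked at the 81.9, 40.9 and 20.9 percentile. The median coding promoter peak ranked at 77.6 for OVCAR-3, 56.4 for DU-145 and 41.0 for COLO-205, so that MYCL lay slightly above it in OVCAR-3 and below it in the other two. The summits held 32 tags in COLO-205 (21.9 to 45.2), 48 in DU-145 (35.4 to 63.6) and 76 in OVCAR-3 (59.9 to 95.1), and lay 494, 568 and 452 bp into the gene. The MYCL peaks of the 3 lines overlapped one another. The local background was close in the 3 lines, between 3.17 and 3.35 times the lowest.

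**Figure D1:**
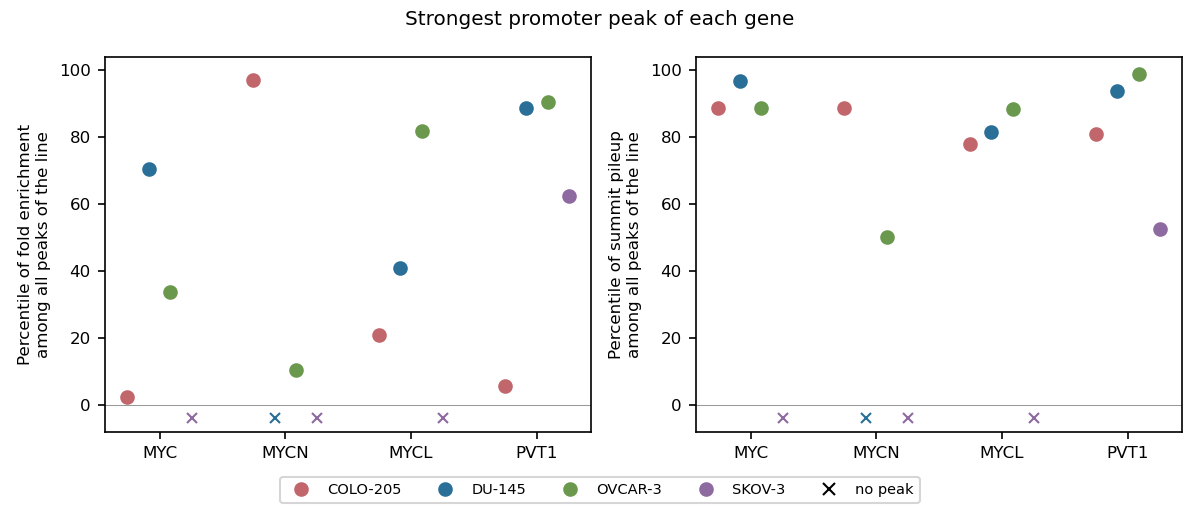
Strongest promoter peak of MYC, MYCN, MYCL and PVT1 in each line, as the percentile of its fold enrichment (left panel, percent) and of its summit pileup (right panel, percent) among all peaks of that line. Points are single libraries and crosses mark lines without a promoter peak. In COLO-205 the MYC point is at 2.53 for fold enrichment and at 88.6 for pileup. Every PVT1 point is a peak that adjoins starts inside the gene, not its 5′ starts.

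PVT1 (chr8:128806772-129199347, plus strand), a lncRNA gene that starts downstream of MYC and is often gained with it, has 132 annotated starts over 392576 bp, so that a peak deep inside the gene can count as a promoter peak by the rule. Its 5′ starts, 58 between 128806772 and 128808279, had 4 promoter peaks in DU-145, with a highest −log10 q of 24.2 at a fold enrichment of 4.34, and 1 in OVCAR-3, with 15.4 at 3.38. They had none in COLO-205 and SKOV-3. The other 74 starts, inside the gene, had 10 promoter peaks in DU-145, 4 in OVCAR-3, 3 in COLO-205 and 2 in SKOV-3. The promoter peaks of PVT1 in COLO-205 and SKOV-3 were thus peaks within the gene that adjoin internal starts, and cannot be told apart from enhancer peaks by position. The strongest promoter peak by −log10 q had a fold enrichment of 3.17 in COLO-205 and 5.81 in SKOV-3, at the 5.83 and 62.4 percentile, and of 6.32 in DU-145, at 88.8. The strongest of all was in OVCAR-3, at the 90.5 percentile and chr8:128866102-128867130, with 183 tags at its summit, a −log10 q of 117.9 and a fold enrichment of 10.55. The interval of the pileup was 157.4 to 211.5. These peaks of DU-145 and OVCAR-3 also adjoin internal starts, with summits 59004 and 59764 bp past the gene start, so the same limit holds for them. At the 5′ starts the peak of highest −log10 q ranked at the 42.8 percentile in DU-145 and 5.08 in OVCAR-3.

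Counting every peak in the PVT1 gene, DU-145 had 89, OVCAR-3 had 49, and COLO-205 and SKOV-3 had 9 each. They covered 11.6%, 4.57%, 0.673% and 0.607% of the gene. The 9 peaks of COLO-205 came from the longest of the 4 lists and the 9 of SKOV-3 from the shortest, so these counts are not on an equal footing.

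CCAT1, a lncRNA gene known from colon cancer, has no record in the annotation used, so its start was not placed on hg19 and its promoter was not analysed here. In the RefSeq gene order of a later assembly it lies between PRNCR1 and CASC8. On hg19 the interval between those genes, chr8:128104846-128302052, held 4 peaks in SKOV-3, 1 in each of COLO-205 and OVCAR-3 and 0 in DU-145. The COLO-205 peak had a fold enrichment of 5.49 at -630073 bp from the MYC start, and 90.05% of its 24-base words recurred in the assembly. The OVCAR-3 peak (fold enrichment 4.96) overlapped a SKOV-3 peak (6.97), and 76.3% and 67.5% of their words recurred. The record of CASC19, a lncRNA gene of this interval with 72 annotated starts, had a single peak within 1 kb of a start, that of SKOV-3 at chr8:128221229-128221487, with a −log10 q of 6.61 at a fold enrichment of 4.48. The peak of the colon line COLO-205 lies within the CASC19 record, but not within 1 kb of a start.

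Around MYC, from chr8:127747680-129755197, DU-145 had 76 distal peaks over 37251 bp, OVCAR-3 had 61 over 20107 bp, SKOV-3 had 13 over 3632 bp and COLO-205 had 8 over 2090 bp. When every list was held to its 14001 peaks of highest −log10 q, the order changed, with 13 in SKOV-3, 9 in OVCAR-3, 8 in DU-145 and 0 in COLO-205. The order by bases covered did not change, with 8968 bp in DU-145, 5045 in OVCAR-3, 3632 in SKOV-3 and 0 in COLO-205. On the full lists DU-145 had 37.9 peaks per Mb against 17.5 over the genome, OVCAR-3 had 30.4 against 17.9, SKOV-3 had 6.48 against 2.05 and COLO-205 had 3.99 against 22.2. The window was therefore sparser than the genome in COLO-205 and denser in the other 3. The whole chromosome was sparser than the genome in all 4 lines, at 15.0 peaks per Mb for DU-145, 13.9 for OVCAR-3, 8.83 for COLO-205 and 1.5 for SKOV-3. At least as many distal peaks within 1 Mb were found for 17.8% of all protein-coding genes in SKOV-3, 27.3% in OVCAR-3, 30.3% in DU-145 and 82.3% in COLO-205.

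**Figure D2:**
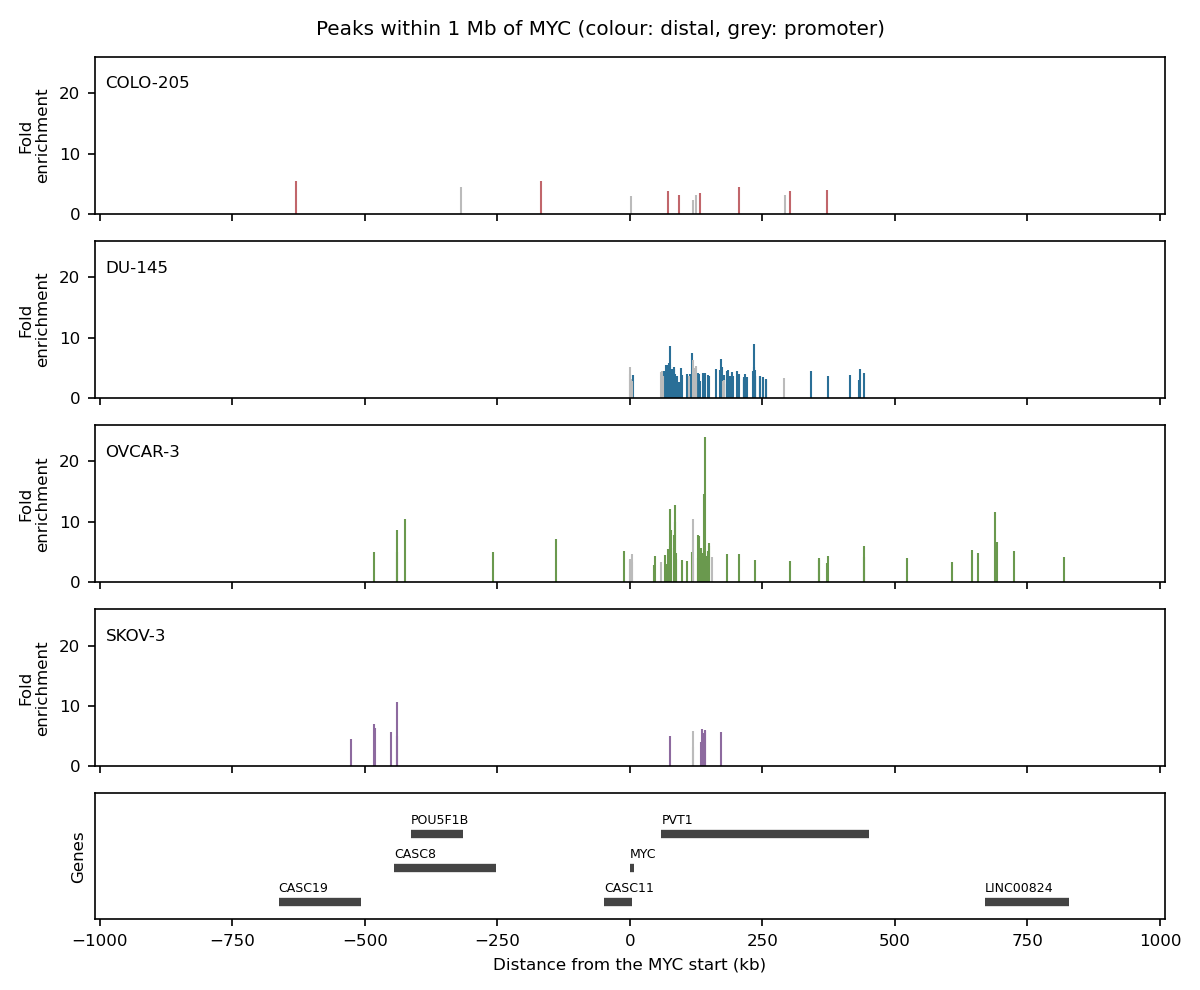
Peaks within 1 Mb of MYC in the 4 lines. The horizontal axis is the distance of the summit from the MYC start in kb, the height of each line is the fold enrichment, colour marks distal peaks and grey promoter peaks, and the lowest panel shows genes of the region. The highest line is the OVCAR-3 peak in PVT1 with a fold enrichment of 24.1, and the distal DU-145 peaks lie on the PVT1 side of the MYC start.

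The peaks fell mostly in PVT1. Its gene body held 75 of the 76 distal peaks of DU-145, 44 of 61 of OVCAR-3, 7 of 13 of SKOV-3 and 6 of 8 of COLO-205. Upstream of MYC, on the side of CASC8, CASC19 and POU5F1B, DU-145 had 0 distal peaks, COLO-205 2, SKOV-3 6 and OVCAR-3 7. Beyond PVT1, OVCAR-3 had 8 and the other lines 0. When peaks less than 10 kb apart were joined, the largest group of DU-145 held 34 peaks over 87192 bp, from 62573 to 149764 bp past the MYC start. That of OVCAR-3 held 16 peaks over 22057 bp and that of SKOV-3 5 over 7410 bp. In COLO-205 no 2 distal peaks were that close.

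**Figure D3:**
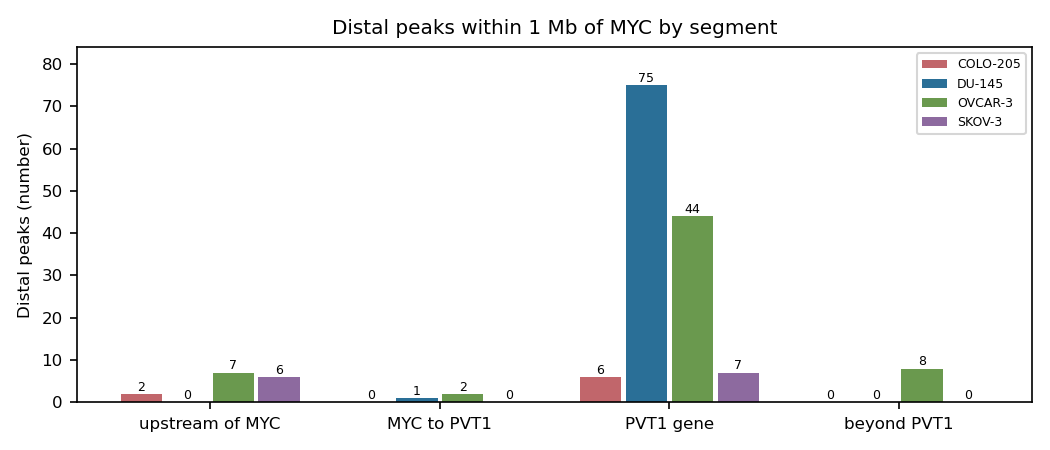
Number of distal peaks within 1 Mb of MYC by segment (upstream of MYC, MYC to PVT1, PVT1 gene, beyond PVT1), with 1 bar per line. DU-145 has 75 of its 76 peaks in PVT1, while OVCAR-3 has peaks in all 4 segments. The segment from MYC to PVT1 begins at the MYC start, and the DU-145 peak in it lies within the MYC gene.

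By −log10 q, the strongest distal peak of OVCAR-3 lay at chr8:128888752-128889678 in PVT1. Its −log10 q was 147.5, its fold enrichment was 24.1 (the 99.7 percentile) and its summit held 143 tags (120.5 to 168.5). Peaks of SKOV-3 and DU-145 overlapped it, with fold enrichments of 5.98 and 4.11. The next in that line had fold enrichments of 12.1 and 14.6. The strongest of DU-145, at chr8:128822050-128822527, had a −log10 q of 61.0 at a fold enrichment of 8.60, and peaks of OVCAR-3 and SKOV-3 with fold enrichments of 12.1 and 4.99 overlapped it. The next in DU-145 had 7.46 and 8.92. In SKOV-3 the strongest lay on the other side of MYC, at chr8:128307302-128307624 and -440218 bp from its start, with a −log10 q of 47.3 at a fold enrichment of 10.7, and the next had 6.97 and 5.75. An OVCAR-3 peak overlapped that strongest one, with a higher −log10 q of 55.4 at a fold enrichment of 8.66. The strongest of COLO-205, at chr8:128578901-128579171, had a −log10 q of 12.0 at a fold enrichment of 5.52, with 61.7% of its words repeated in the assembly, and the next had 5.49 and 4.54. The 3 strongest distal peaks of DU-145 and of OVCAR-3 lay in PVT1, while COLO-205 and SKOV-3 each had the first 2 upstream of MYC and the third in PVT1.

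The lines shared part of these regions. A peak of another line overlapped 6 of the 8 distal peaks of COLO-205 (75.0%, 95% Clopper-Pearson interval 34.9 to 96.8), 25 of 76 of DU-145 (32.9%, 22.5 to 44.6), 35 of 61 of OVCAR-3 (57.4%, 44.1 to 70.0) and 9 of 13 of SKOV-3 (69.2%, 38.6 to 90.9). Over all distal peaks of each line the shares were 15.9%, 25.8%, 28.6% and 66.0%. The intervals lie above the share of all distal peaks in COLO-205 and OVCAR-3 and include it in DU-145 and SKOV-3, and neighbouring peaks are not independent. With peaks of −log10 q of at least 10 alone, the share was 32.4% of 34 peaks in OVCAR-3, and COLO-205 kept 1 peak, too few for a share. The shares over all distal peaks were not recomputed at that threshold. Merged over the lines, all peaks of the window formed 136 regions, of which 96 were in 1 line, 32 in 2, 7 in 3 and 1 in all 4. The largest class seen in more than 1 line was DU-145 with OVCAR-3, with 22 regions. These lines also held the most peaks of the window, 95 and 71, against 13 in COLO-205 and 15 in SKOV-3. The same tally over the whole lists was not made, so these counts cannot be called particular to the window. The region of all 4 lines, chr8:128864891-128867130 in PVT1, had fold enrichments of 10.55 in OVCAR-3, 6.32 in DU-145, 3.26 in SKOV-3 and 2.38 in COLO-205.

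The median local background at these peaks was higher than over all distal peaks in every line. Its median, in multiples of the lowest background, was 2.19 for DU-145 against 1.27 over all distal peaks of the line. It was 2.09 against 1.40 for OVCAR-3, 2.30 against 1.76 for SKOV-3 and 1.99 against 1.58 for COLO-205. The median fold enrichment was 3.94 against 4.59 over all distal peaks for DU-145, 4.79 against 5.28 for OVCAR-3, 3.91 against 4.83 for COLO-205 and 5.75 against 5.62 for SKOV-3. The fold enrichment was thus lower than that of all distal peaks in 3 lines and slightly higher in SKOV-3. The cause of the higher background was not tested.

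**Figure D4:**
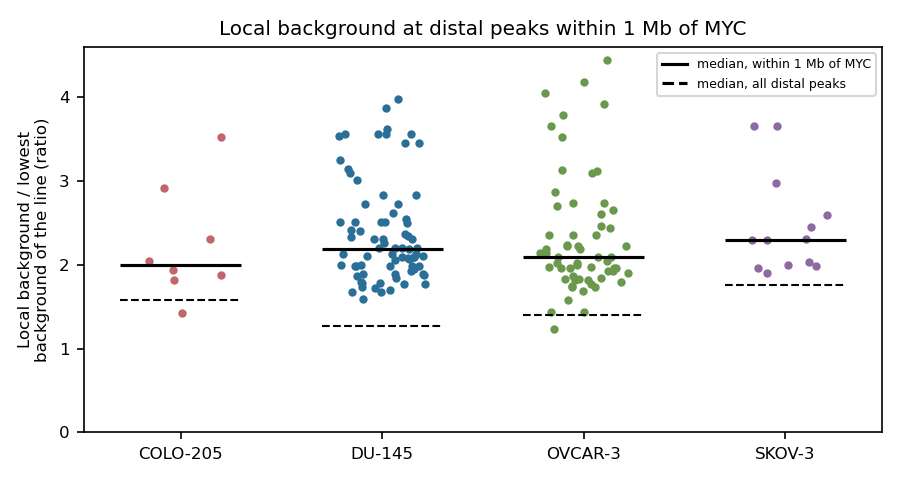
Local background at each distal peak within 1 Mb of MYC, as a ratio to the lowest background of its line (vertical axis, ratio), with 1 point per peak. Solid bars are the medians of these peaks and dashed bars those of all distal peaks, and the solid bar lies above the dashed bar in all 4 lines.

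Of the motifs searched in 300 bp windows on the summits, AP-1 was present in 6 of 76 distal peaks of DU-145 (7.89%, 2.95 to 16.4) and 3 of 61 of OVCAR-3 (4.92%, 1.03 to 13.7), against 7.83% and 7.25% of all distal peaks in those lines. The E-box was in 2 of 76 and 2 of 61, against 4.75% and 4.94%, and the forkhead motif in 1 of 76 and 3 of 61, against 1.75% and 1.72%. The counting interval of each of these shares included the share of all distal peaks in the line. The TCF/LEF motif was in 1 of 76 in DU-145 and 1 of 61 in OVCAR-3, against 1.79% and 1.78%. COLO-205 had no match of any of the motifs in its 8 windows, against 4.94% for AP-1 and 5.95% for the E-box over all its distal peaks. SKOV-3 had 1 forkhead and 1 E-box match in 13, against 1.64% and 4.58%, and no AP-1 match, against 6.91%. The counting intervals again included these shares, and so few windows say little. Repeated sequence was counted at these peaks too, without a value for all distal peaks. More than 50% of the 24-base words recurred in the assembly at 23 of 61 distal peaks in OVCAR-3, 13 of 76 in DU-145, 5 of 13 in SKOV-3 and 4 of 8 in COLO-205, while the 3 strongest in DU-145 and OVCAR-3 had none that recurred.

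Near MYCN, distal peaks numbered 4 in COLO-205 and 9 in OVCAR-3. Near MYCL they numbered 4 and 3. DU-145 and SKOV-3 had none near either gene. With lists of equal length, 1 of these peaks was left in COLO-205 and 0 in OVCAR-3, so that OVCAR-3 no longer differed from the lines with none. Over the genome SKOV-3 had 2.05 distal peaks per Mb, COLO-205 22.2, OVCAR-3 17.9 and DU-145 17.5. A window of 50 kb either side is a small part of 1 Mb, so the lack of a peak in SKOV-3 says little. Windows of this size at other genes were not counted, so the counts cannot be called particular to MYCN or MYCL. The COLO-205 peak at chr2:16031594-16031836, -48979 bp from the MYCN start, had a fold enrichment of 6.13 and overlapped that of OVCAR-3 at chr2:16031640-16031838, with 4.45. This was the only region near MYCN or MYCL with a distal peak in both lines, and its sequence is printed above. The other COLO-205 peaks near MYCN had fold enrichments of 4.16, 3.30 and 4.30. That of 3.30 lay within the MYCN gene, with its summit 1810 bp past the start. In OVCAR-3 the strongest, at chr2:16108871-16109158 and 28340 bp downstream of the start, had a −log10 q of 18.1 at a fold enrichment of 8.12, followed by 6.25 and 5.91 at its next peaks by −log10 q. The fold enrichments near MYCL were between 4.55 and 6.23 in COLO-205 and between 6.04 and 6.82 in OVCAR-3. Over 50% of the words were repeated in the assembly at 4 of the 9 OVCAR-3 peaks near MYCN and 0 of the 4 COLO-205 peaks. Near MYCL this held for 2 of the 3 OVCAR-3 peaks and 2 of the 4 COLO-205 peaks. The part of repeated sequence in these peaks was not tested.

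**Figure D5:**
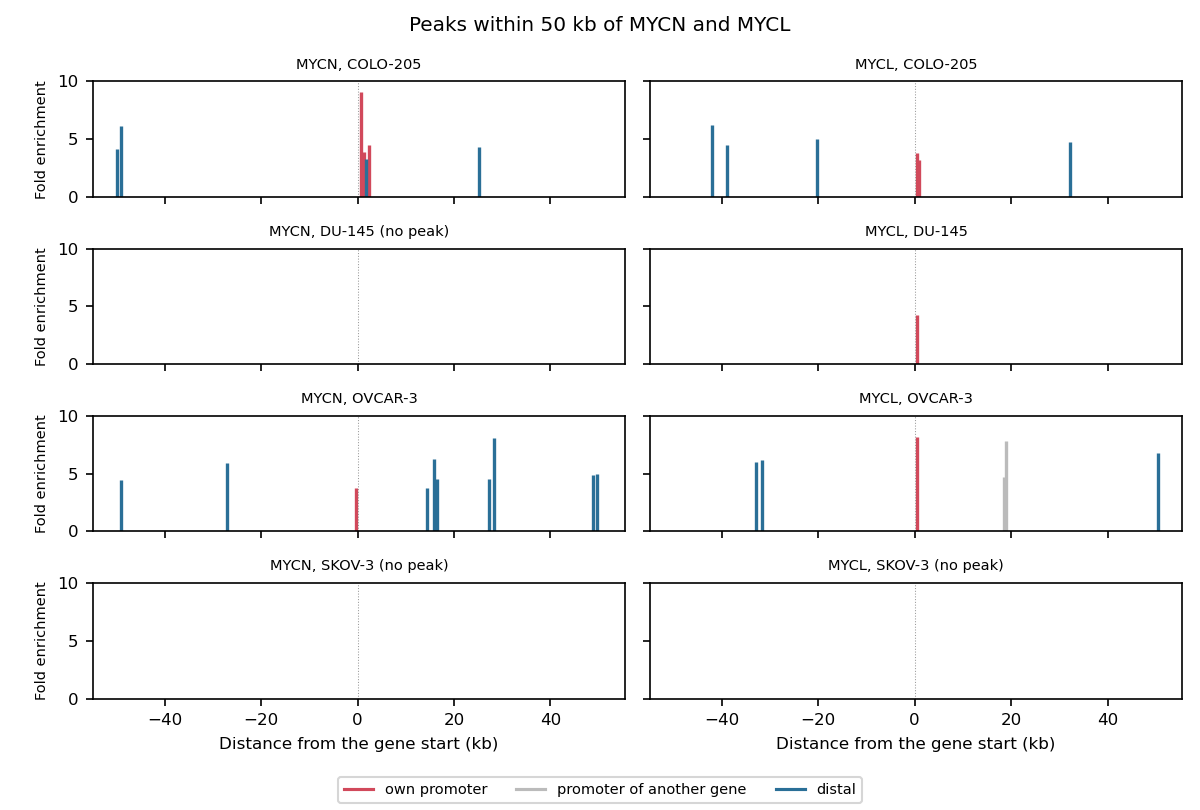
Peaks within 50 kb of MYCN (left) and MYCL (right) in each line. The horizontal axis is the distance from the gene start in kb in the direction of transcription and the height is the fold enrichment, with the gene's own promoter peaks in red, promoter peaks of another gene in grey and distal peaks in blue. DU-145 and SKOV-3 show no distal peak, and the highest line is the COLO-205 promoter peak of MYCN, at 9.07.

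The genes that work with MYC were described by the lists of the MAX network, the cofactors and turnover factors, and known targets. The counts of each list stand beside a share of all protein-coding genes with a promoter peak of 60.5% for OVCAR-3, 59.8% for DU-145, 51.1% for COLO-205 and 31.6% for SKOV-3, and the difference from these shares was not tested. In the MAX network, which holds MAX, MLX and their partners, all 10 genes had a promoter peak in DU-145 and 9 of 10 in each other line. MAX itself, the obligate partner, ranked at the 96.9 percentile by fold enrichment in DU-145, followed by COLO-205 at 82.2, OVCAR-3 at 79.1 and SKOV-3 at 17.4. Of these 10 genes, the highest was MGA in OVCAR-3, a MAX partner that acts in repression, at 98.7. MLXIPL, a glucose-responsive factor, had no peak in OVCAR-3 and SKOV-3, and MXI1, a MAX partner that opposes MYC, had none in COLO-205. Of the 9 cofactor and turnover genes, all had one in DU-145 and OVCAR-3, 8 in COLO-205 and 7 in SKOV-3. FBXW7, which marks MYC for degradation, ranked at the 6.53 percentile in DU-145.

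Of the 10 target genes, all 10 had a promoter peak in COLO-205 and DU-145, OVCAR-3 had one at 9 and SKOV-3 at 4, or 40.0%, beside 31.6% of all protein-coding genes for SKOV-3. FBL, a component of ribosomal RNA processing, ranked at the 99.3 percentile in OVCAR-3 and had no peak in SKOV-3. CDK4, a cell cycle kinase, ranked at 8.55 in COLO-205 and had none in SKOV-3. The median percentile of those with a peak was 84.9 in OVCAR-3 against 77.6 for all coding promoters, 58.3 in SKOV-3 against 47.4, 56.2 in DU-145 against 56.4 and 47.7 in COLO-205 against 41.0. The other 23 genes with a start within 1 Mb of MYC had a promoter peak at 3 in DU-145 and OVCAR-3 and at 2 in COLO-205 and SKOV-3. One of these genes, the lncRNA gene PCAT1, had a promoter peak in all 4 lines, but at starts that lie more than 1 Mb from MYC. Without it the counts were 2 in DU-145 and OVCAR-3 and 1 in COLO-205 and SKOV-3. CASC11 shares peaks with the MYC start in DU-145 and OVCAR-3. Of all lncRNA genes, the largest class among the 23, 24.4% had a promoter peak in DU-145, 24.6% in OVCAR-3, 22.8% in COLO-205 and 10.7% in SKOV-3. The 23 also hold small RNA genes and pseudogenes, and the difference from these shares was not tested.

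By the rule of smallest summed difference in percentile over the 4 lines, the genes with the pattern most like MYC were CSPG5, GYS1 and RUVBL2, with summed differences of 4.59, 4.92 and 4.92 over 17628 genes. A gene without a promoter peak was scored as percentile 0, and these 3 genes had none in COLO-205, where MYC had one at 2.53. GYS1 and RUVBL2 have the same values. For MYCN they were GRIN2B, MTFR2 and KIF6 (2.71, 2.82 and 3.94), for MYCL TP53RK, TP53RK-DT and SLC37A3 (3.88, 3.88 and 4.66), and for PVT1 TMEM179B, ZNF654 and SETDB1 (8.56, 9.19 and 10.7). Each likeness rests on 4 libraries.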

How the data were processed

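H3K27ac ChIP-seq was deposited for 4 cell lines, 1 library each, and samples were grouped by the cell line in the labels. Per the submitters' processing notes the reads were mapped with Bowtie2 2.1.0 to hg19 (GRCh37) and peaks were called with MACS2 2.1.0.20150603. The deposited lists hold the authors' score for each peak, its fold enrichment ratio to the background, and its −log10 p and q, on scales set within each library. The study's methods state merging of peaks closer than 350 bp, which is not applied in the deposited lists. Tag pileup and background at each summit were solved from the fold enrichment and −log10 p, within 0.001. On simulated data the pileup was recovered at 100% of 5000 summits per line. ChIP tags came from the lowest background with the narrowest peak as fragment length and 2700000000 positions. No peak passed the end of its chromosome in GRCh37.

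Genes came from GENCODE v44 lifted to GRCh37. A peak within 1000 bp of a start was a promoter peak. With 1 library per line no test was run, and intervals are Poisson or Clopper-Pearson at 95%. The members and lists were chosen with earlier results of these data known. Named are the strongest peaks by −log10 q of each member and line, the 3 strongest distal peaks near MYC by line, each distal peak near MYCN and MYCL where a line had 5 or fewer and otherwise the 3 strongest, the 3 genes nearest each member in percentile, and up to 4 genes per list with the highest and lowest percentile. Alternatives were −log10 q of at least 5 or 10, equal list lengths, merging, other windows, starts, and overlaps. Counts of repeated 24-base words, added after the data were seen, used the assembly on both strands. Scripts used pandas 2.3.3, numpy 2.4.6 and scipy 1.17.1 under Python 3.11.15, and figures matplotlib 3.10.9. Some named items of the lists and some sequences are not reported here. SKOV-3 had the fewest tags and peaks, and the part of depth in its short list was not tested.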

Additional observations from a re-analysis of the deposited data

How the results depend on the processing

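Of 103 alternative values, 77 stayed within the limits set, by 1.5 times for a count and by the counting interval for a share, and 26 moved. At a −log10 q of at least 10, promoter members fell to 1 in COLO-205. Distal peaks within 1 Mb of MYC were 32 in DU-145, 34 in OVCAR-3, 8 in SKOV-3 and 1 in COLO-205, and those near MYCN and MYCL 2 in COLO-205 and 5 in OVCAR-3. The bases covered were then 271, 19791 and 12931 in COLO-205, DU-145 and OVCAR-3, and the shares shared with another line 0.0% in COLO-205 (of 1 peak, which says nothing of sharing) and 32.4% in OVCAR-3. With lists of equal length (14001 peaks), promoter members were 1 in COLO-205 and 2 in OVCAR-3, distal peaks within 1 Mb of MYC 0, 8 and 9 in COLO-205, DU-145 and OVCAR-3, with 0, 8968 and 5045 bases, and near MYCN and MYCL 1 in COLO-205 and 0 in OVCAR-3. SKOV-3, unchanged at 13 there, then had the most distal peaks near MYC, so the order of the lines by that count changed. Counting only the start of the gene record left 2 promoter members in COLO-205 and 0 in SKOV-3. Within 100 kb of MYCN and MYCL, COLO-205 had 15 distal peaks. Requiring 50% of the peak to overlap gave 22.4% in DU-145. Each setting but the wider window keeps fewer peaks, starts or overlaps by construction, and no other cause was tested.

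No paired analysis was possible because each line has 1 library. Depth limits peaks to those that passed the caller, and the lists say nothing of weaker signal.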
